A study of Mus musculus with 16 samples.

Results

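Expression of 10 genes that make, sense, carry or break down adenosine, or handle the base adenine, was followed in the ventricles of mice with and without adenine-induced chronic kidney disease (CKD). The genes are Nt5e (which encodes CD73), Entpd1 (CD39), the adenosine receptor genes Adora1, Adora2a and Adora2b, Ada, Adk, Slc29a1, Xdh and Aprt. They were selected on the CKD contrast of these same libraries: Nt5e was 1 of the 14 genes called in CKD against control (0.0854% of the 16400 genes tested), and the other 9 were gathered around it because they belong to the same pathway. All 10 are among the 33399 genes of the count table, and all 10 passed the filter on low counts. Because this contrast chose them, their differences between CKD and control are given as a description with no test, while differences between the sexes, which the choice did not use, were tested.

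Outside cells, CD39 strips phosphates from ATP and ADP to give AMP, and CD73 turns AMP into adenosine, which acts on G protein-coupled receptors. Equilibrative transporters then carry adenosine into the cell, where adenosine kinase returns it to AMP or adenosine deaminase turns it into inosine. In the heart adenosine is known for slowing atrioventricular conduction and widening coronary vessels. Dietary adenine has its own enzymes: adenine phosphoribosyltransferase salvages it to AMP, and xanthine dehydrogenase oxidises it to dihydroxyadenine, the compound that crystallises in the kidney in this model.

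All mice were C57BL/6 wild type from Jackson Laboratories, and the diets began at 8 weeks of age. CKD mice received chow with 0.25% adenine that alternated with standard chow for 6 weeks, at the dose the labels call high, with a target for the median blood urea nitrogen of 40 to 70 mg/dL. Control mice received standard chow for the same time. Males and females on either diet had 4 libraries per group, made from total RNA of whole ventricles, and p-values measure the spread between these libraries. Blood urea nitrogen of single mice was not analysed here.

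The libraries held 10203707 to 13626039 counts, and replicate numbers only name libraries. The 10 cardiomyocyte markers summed to 31354 to 45209 counts per 1000000 counts of a library (CPM) in controls and 36083 to 52219 in CKD mice, so the labelled tissue showed its defining transcripts in every library. The library male CKD 4 stood apart: its mean over 12 endothelial markers was 5.59 log2 CPM against 6.11 to 6.91 in the others, its fibroblast mean was 4.39, and its cardiomyocyte mean of 11.77 was the highest of all. In CKD 11 of 12 endothelial markers (median log2 fold change -0.28) and 10 of 11 fibroblast markers (median -0.40) were lower. So were 9 of 10 pericyte and smooth muscle, 8 of 10 macrophage, 6 of 6 lymphocyte, 5 of 5 erythroid and 5 of 5 Schwann cell markers tested. Adipocyte markers (3 of 5 lower) and mesothelial markers (3 of 6) were mixed. Of the cardiomyocyte markers 8 of 10 were higher (median 0.05), and no marker of any list passed the threshold. In these bulk samples fewer cells of a type and less RNA per cell cannot be told apart. Libraries also differed in a trend with GC content, measured as the rank correlation across genes between a gene's GC content and its deviation from its mean over libraries, which ran from -0.502 to 0.560. This trend was -0.502 to 0.148 in females and 0.00685 to 0.560 in males, and -0.502 to 0.409 in CKD mice against -0.474 to 0.560 in controls. Its median was -0.441 in female CKD against -0.0219 in female control libraries, and 0.165 in male CKD against 0.339 in male control libraries. The trend thus differed between the diets within each sex as well as between the sexes.

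Per kilobase of exon, the kinase and the transporter led and the deaminase and the A2B receptor came last. In the 8 control libraries Adk was at 49.4 ± 5.89 transcripts per 1000000 (TPM), Slc29a1 at 33.3 ± 3.49, Xdh at 20.3 ± 3.89 and Aprt at 17.5 ± 2.18 (mean ± SD). Entpd1 followed at 9.45 ± 2.76 TPM, Nt5e at 6.36 ± 1.25, Adora2a at 4.92 ± 1.09 and Adora1 at 4.40 ± 1.53. Ada was at 1.03 ± 0.301 TPM and Adora2b at 0.957 ± 0.298. The scale here is a level, counts divided by exon length and scaled to the same sum in each library. Of the 9 pairs of neighbours in this order 5 differed by more than the spread of their within-library difference. Xdh and Aprt, Nt5e and Adora2a, Adora2a and Adora1, and Ada and Adora2b did not. With the length of the longest transcript in place of all exons, Aprt moved above Xdh and Nt5e (11.8 ± 2.32 TPM) above Entpd1 (10.7 ± 3.13 TPM), since the exons of Nt5e cover 8602 bases and its longest transcript 3995.

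**Figure D1:**
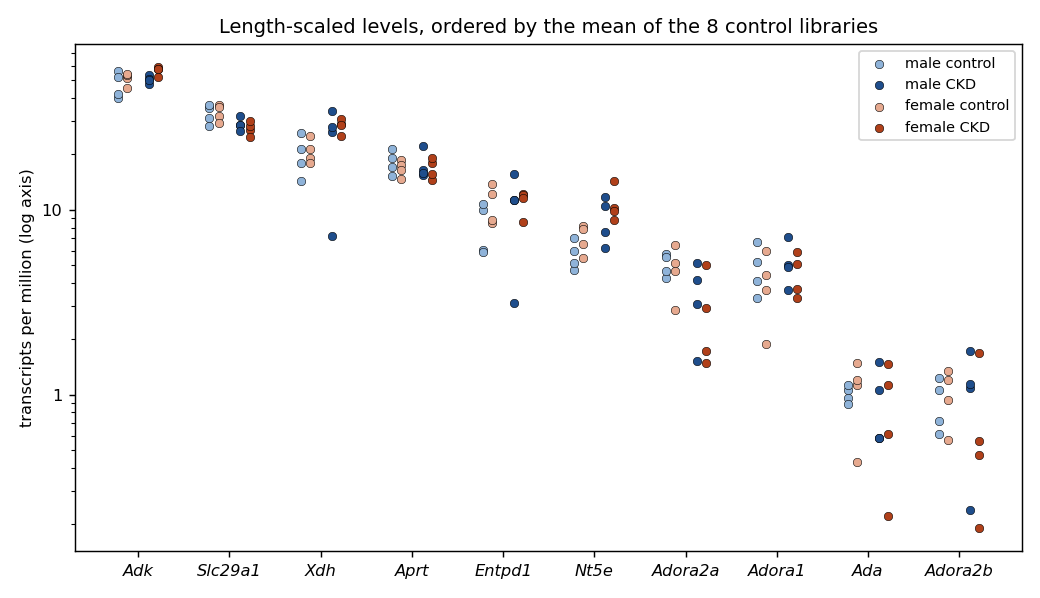
Levels of the 10 genes in TPM (log axis) in each of the 16 libraries, with genes ordered by their mean over the 8 control libraries and points coloured by group. Adk and Slc29a1 stand at the top, Ada and Adora2b near 1 TPM at the bottom, and the male CKD 4 library gives the low points of Xdh and Entpd1.

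Of the ectonucleotidases at the cell surface, Nt5e was higher in CKD mice of both sexes. Nt5e (ENSMUSG00000032420.8, GRCm38 chr9:88327197-88372092, plus strand) encodes the enzyme that forms adenosine from AMP. Male controls were at 24.9, 28.7, 20.7 and 22.3 CPM, and male CKD mice at 44.0, 49.5, 27.1 and 42.3. Female controls were at 29.1, 35.8, 31.8 and 25.02 CPM, and female CKD mice at 64.0, 50.7, 42.8 and 40.0. Thus 7 of 8 CKD libraries lay above every control library, and the exception, male CKD 3, lay inside the range of the controls. The log2 fold change was 0.73 (SE 0.13, 95% interval 0.45 to 1.001), or 1.65-fold, with 0.75 (SE 0.19) in males and 0.70 (SE 0.19) in females. The mean level was 6.36 ± 1.25 TPM in controls and 9.88 ± 2.48 in CKD mice (SD, n = 8 each). At least 7 of 8 CKD libraries lay above every control for 0.756% of the genes tested, and from that share nothing is read, because this contrast chose the gene. Among the 10 libraries with the number 6 in the code of their titles, whose meaning no source used here gives, the log2 fold change was 0.58 (SE 0.16).

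To show where transcription of Nt5e is annotated to start, its RefSeq window (GRCm38.p6, the 250 bases before the start, chr9:88327359-88327608, plus strand) was searched on both strands for short motifs. The window begins downstream of the gene start given by GENCODE. It held the letters GCGTG, a core of hypoxia response elements, once, 138 bases before the RefSeq start, in the 30 bases at chr9:88327459-88327488, with the motif in capitals: tccctgcgggctGCGTGtgctgggccagag. The motif was found in 28.2% of 32851 such windows of the genome. The other core, ACGTG, the short motif TGACG and the full cAMP response element TGACGTCA, which contains it, had no match in the window, and they matched in 16.6%, 17.8% and 1.55% of all windows. The GC box GGGCGG was present 4 times, in overlapping pairs, and at least once in 32.7% of all windows. These matches describe letters only, and 8 of the 10 genes had a RefSeq window.

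Entpd1 (ENSMUSG00000048120.16, chr19:40612366-40741602, plus strand), which encodes the enzyme upstream of CD73, showed wide overlap between the groups. Male controls were at 26.7, 28.4, 17.2 and 16.5 CPM, and male CKD mice at 42.5, 30.9, 31.8 and 11.4. Female controls were at 39.6, 34.4, 22.3 and 26.1 CPM, and female CKD mice at 35.4, 27.6, 33.8 and 34.2. In males 3 CKD libraries exceeded every control and male CKD 4 was the lowest of all 16 libraries. The share of all genes with such a count in males was not computed, and nothing is read from it. In females the CKD values lay inside the range of the controls. The log2 fold change was 0.24 (SE 0.21), and 0.40 (SE 0.16) with male CKD 4 and female control 2 left out. Without male CKD 1 it was 0.12 (SE 0.20), and among the libraries with title code number 6 it was 0.17 (SE 0.17).

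**Figure D2:**
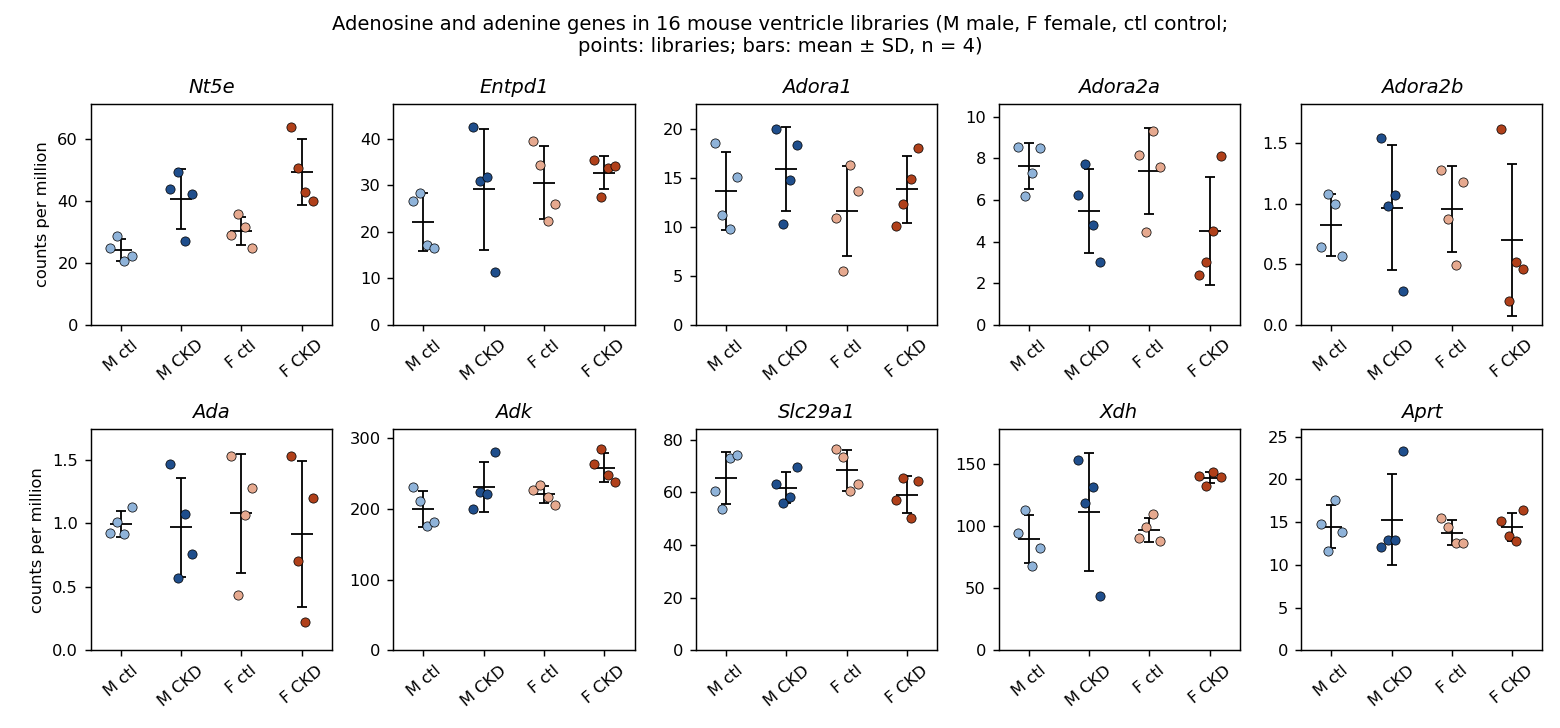
Expression in CPM of each of the 10 genes in male (M) and female (F) control (ctl) and CKD libraries; points are libraries, bars the mean ± SD of 4. Nt5e is higher in CKD in both sexes, with male CKD 3 at 27.1 CPM inside the control range; male CKD 4 is the low point of Xdh (43.3 CPM) and Entpd1 (11.4 CPM) and the high point of Aprt (23.3 CPM).

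The 3 receptor genes tested had differences of both signs. Adora2a (ENSMUSG00000020178.6, chr10:75316877-75334784, plus strand) encodes a receptor that raises cAMP and is known for widening coronary vessels. It was at 8.56, 6.20, 7.31 and 8.48 CPM in male controls and at 6.23, 7.75, 4.83 and 3.03 in male CKD mice. Female controls were at 8.16, 4.47, 9.34 and 7.59 CPM, and female CKD mice at 2.38, 3.03, 4.52 and 8.14. Values in CKD were lower on the whole, but the groups overlapped: 3 of 8 CKD libraries lay below every control library, as they did for 12.8% of all genes tested. The log2 fold change was -0.59 (SE 0.24, 95% interval -1.09 to -0.10), with -0.48 (SE 0.34) in males and -0.71 (SE 0.34) in females. Without female CKD 4, the highest of the female CKD libraries, it was -0.77 (SE 0.22), and among the libraries with title code number 6 it was -0.84 (SE 0.26). Without female CKD 1 it was -0.49, the smallest fall of all alternatives. Adora2a had r = 0.538 with the GC trend of the libraries (adjusted permutation p = 0.152), and 0.714 within title code number 6. The part of that trend in the lower Adora2a values was not tested.

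Adora2a varied among mice of the same group together with markers of endothelial cells, fibroblasts and Schwann cells alike. After the mean of each group was subtracted, Pearson's r with the mean of the endothelial markers was 0.741 over 16 libraries (Spearman's rho 0.665, permutation p = 0.00100 and 0.00606, adjusted over 100 pairs of gene and marker list 0.0200 and 0.0847). Without the 2 libraries farthest from the median on the marker axis r was 0.591, and within the 10 libraries with title code number 6 it was 0.433. For Schwann cell markers r was 0.773 (rho 0.685, permutation p = 0.000460 and 0.00426, adjusted 0.0153 and 0.0787) and for fibroblast markers 0.712 (rho 0.647, permutation p = 0.00182 and 0.00762, adjusted 0.0243 and 0.0847). Without the 2 farthest libraries these were 0.598 and 0.523, and within title code number 6 they were 0.311 and 0.243. The summed endothelial markers were 1554 to 1923 CPM in controls and 939 to 2015 in CKD mice. The part of these markers in the lower Adora2a values was not tested.

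Adora1 (ENSMUSG00000042429.8, chr1:134199223-134235431, minus strand) encodes the A1 receptor, which lowers cAMP and slows atrioventricular conduction. It was at 18.6, 11.2, 9.81 and 15.2 CPM in male controls and at 20.1, 10.4, 14.8 and 18.4 in male CKD mice. In females, controls were at 10.96, 5.52, 16.3 and 13.7 CPM, and female CKD mice at 10.1, 12.4, 14.9 and 18.1. The groups overlapped in both sexes, and the log2 fold change was 0.24 (SE 0.21), or 0.07 (SE 0.18) with male CKD 4 and female control 2, its lowest library, left out. With the GC trend of each library removed, Adora1 had 0.37 (SE 0.185). Of its exon bases 20.1% lie opposite exons of Mybph, and without a stated strand setting reads of the pair cannot be told apart there. Within groups Adora1 ran opposite to the lymphocyte markers (r = -0.697, rho = -0.744, permutation p = 0.00294 and 0.00147, adjusted 0.0290 and 0.0490). This r was -0.447 without the 2 farthest libraries and -0.748 within title code number 6. Adora2b (ENSMUSG00000018500.2, chr11:62248984-62266453, plus strand), the gene of the low-affinity A2B receptor, had only 2 to 21 counts per library and 0.202 to 1.61 CPM. Its log2 fold change was -0.06 (SE 0.36), so the 95% interval of -0.83 to 0.70 left changes of either sign possible at this depth. Adora3, the gene of the remaining receptor, was below the filter.

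Inside the cell, the kinase was slightly higher in CKD, and values of the transporter and the deaminase overlapped widely. Adk (ENSMUSG00000039197.10, chr14:21052574-21448569, plus strand) encodes adenosine kinase, the enzyme that keeps intracellular adenosine low. It was at 231, 211, 176 and 182 CPM in male controls and at 200, 223, 221 and 281 in male CKD mice. In females, controls were at 226, 233, 217 and 206 CPM, and female CKD mice at 264, 284, 248 and 238. All 4 female CKD libraries exceeded every female control, while the males overlapped. The share of all genes that separate so in females was not computed, and nothing is read from this count. The log2 fold change was 0.22 (SE 0.08, 95% interval 0.04 to 0.39), with 0.21 (SE 0.12) in males and 0.23 (SE 0.12) in females. Among the libraries with title code number 6 it was 0.11 (SE 0.08).

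Within groups Adk ran opposite to the markers of several cell types. With the cardiomyocyte markers r was 0.338 and rho -0.00882, and r was -0.363 without the 2 farthest libraries. For fibroblast markers r was -0.789 and rho -0.706 (permutation p = 0.000150 and 0.00292, adjusted 0.00750 and 0.0730). This r was -0.662 without the 2 farthest libraries and -0.213 within title code number 6. With endothelial markers r was -0.711 (rho -0.574, permutation p = 0.00199 and 0.0220, adjusted 0.0243 and 0.200), or -0.497 without the 2 farthest libraries and -0.560 within title code number 6. With Schwann cell markers r was -0.699 (rho -0.679, permutation p = 0.00219 and 0.00472, adjusted 0.0243 and 0.0787), or -0.822 and -0.561. With macrophage markers r was -0.679 (rho -0.429, permutation p = 0.00319 and 0.0982, adjusted 0.0290 and 0.481), or -0.470 and 0.200, so the sign turned within title code number 6. The summed fibroblast markers were 1985 to 2468 CPM in controls and 570 to 2389 in CKD mice, and the part of these markers in the Adk values was not tested.

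Slc29a1 (ENSMUSG00000023942.15, chr17:45585200-45599606, minus strand) encodes ENT1, the main equilibrative nucleoside transporter. It was at 60.5, 53.7, 73.1 and 74.3 CPM in male controls and at 63.1, 56.1, 58.4 and 69.7 in male CKD mice. Control females were at 76.6, 73.6, 60.7 and 63.1 CPM, and female CKD mice at 57.0, 65.4, 50.2 and 64.4. The values overlapped in both sexes, and the log2 fold change was -0.15 (SE 0.09), or -0.03 (SE 0.10) once the GC trend of each library had been removed. Of its exon bases 6.86% lie opposite exons of Gm17080. Within groups it followed the cardiomyocyte markers (r = 0.718, rho = 0.785, permutation p = 0.00129 and 0.000560, adjusted 0.0215 and 0.0280). This r was 0.720 without the 2 farthest libraries and 0.818 within title code number 6. Ada (ENSMUSG00000017697.3, chr2:163726584-163750239, minus strand), the deaminase gene, had 3 to 20 counts per library, 0.222 to 1.53 CPM, and a log2 fold change of -0.13 (SE 0.31, 95% interval -0.79 to 0.52).

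Of the genes of adenine and xanthine handling, Xdh was higher in most CKD libraries and Aprt was not. Xdh (ENSMUSG00000024066.8, chr17:73883895-73950196, minus strand) encodes xanthine dehydrogenase, which makes urate and oxidises adenine. Male controls were at 94.6, 113, 67.4 and 82.0 CPM, and male CKD mice at 153, 118, 131 and 43.3. Control females were at 90.5, 99.1, 109 and 87.5 CPM, and female CKD mice at 140, 132, 143 and 140. As for Nt5e, 7 of 8 CKD libraries lay above every control library, but the exception, male CKD 4, lay below all the others. At least 7 of 8 did so for 0.756% of the genes tested, and nothing is read from that share. The female CKD libraries were close together, at 139 ± 4.65 CPM against 96.5 ± 9.72 in female controls (n = 4 each). The log2 fold change was 0.42 (SE 0.18, 95% interval 0.04 to 0.80), with 0.32 (SE 0.26) in males and 0.52 (SE 0.26) in females. Without male CKD 4 it was 0.55 (SE 0.10), and among the libraries with title code number 6, which do not include male CKD 4, it was 0.46 (SE 0.08). Without male CKD 1 it was 0.34, the lowest of the alternatives. In the annotation 15.8% of the 25-base words of Xdh occur in other genes, most of them in Ppp2r5a, and no source used here says how such reads were counted.

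Aprt (ENSMUSG00000006589.8, chr8:122574635-122576909, minus strand) encodes the enzyme that salvages adenine itself. It was at 14.8, 11.6, 17.6 and 13.9 CPM in male controls and at 12.1, 12.9, 12.96 and 23.3 in male CKD mice. Female controls were at 15.5, 14.5, 12.5 and 12.6 CPM, and female CKD mice at 15.1, 13.4, 12.7 and 16.5. Values overlapped throughout apart from male CKD 4, the highest of all, and the log2 fold change was 0.07 (SE 0.14, 95% interval -0.21 to 0.36).

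Within groups Xdh and Aprt moved in opposite directions. Over 16 libraries their r was -0.886 and their rho -0.791 (permutation p = 6.00e-05 and 0.000520, adjusted over 45 pairs of the 10 genes 0.00270 and 0.0234). It was -0.658 without the 2 libraries farthest from the median, male CKD 4 among them, and -0.808 within title code number 6. Xdh also ran opposite to the cardiomyocyte markers (r = -0.834, rho = -0.865, permutation p = 0.000120 and 6.00e-05, adjusted 0.00750 and 0.00600). This was -0.738 without the 2 farthest libraries but -0.314 within title code number 6. Entpd1 and Xdh had r = 0.854 and rho = 0.641 (permutation p = 0.000170 and 0.00874, adjusted 0.00382 and 0.0787), with r = 0.540 without male CKD 1 and male CKD 4 and -0.151 within title code number 6, so it did not hold within that set.

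Of the 100 pairs of gene and marker list 13 passed an adjusted p of 0.05 by Pearson's r, and 3 by Spearman's rho, which are among the 13. The 3 were Adora1 with the lymphocyte markers, and Slc29a1 and Xdh with the cardiomyocyte markers. Permutations made no allowance for the subtracted group means, so these p-values are likely too small. Calls near the threshold are therefore uncertain. Of the 45 pairs of genes 3 passed by r and 2 by rho; Xdh and Aprt passed by both, and Slc29a1 and Aprt by rho alone (r = 0.649, rho = 0.726, permutation p = 0.00445 and 0.00189, adjusted 0.0501 and 0.0425; r = 0.598 without the 2 farthest libraries). With male CKD 4 and female control 2 left out, 14 libraries remained and no pair passed by either measure. Several coefficients were then about as large as before, and others fell. For Slc29a1 with the cardiomyocyte markers r was 0.732 (rho 0.789). For Adora2a it was 0.748 with the Schwann cell markers (rho 0.530) and 0.702 with the endothelial markers (rho 0.442). Between Entpd1 and the macrophage markers r fell from 0.730 to 0.0852, and between Adk and the endothelial markers to -0.420. Xdh had -0.614 with the cardiomyocyte markers, -0.666 with Aprt (rho -0.481) and 0.526 with Entpd1. Nt5e was in none of the pairs that passed; its r with the endothelial markers was -0.294 (rho -0.335, permutation p = 0.271 and 0.205, adjusted 0.512 and 0.582), and -0.226 without the 2 farthest libraries. None of the 10 genes passed an adjusted p of 0.05 against the GC trend of the libraries. The closest was Adora1 (r = 0.630, rho = 0.565, permutation p = 0.00906 and 0.0252, adjusted over 10 genes 0.0906 and 0.183), with r = 0.772 without the 2 farthest libraries and 0.887 within title code number 6.

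**Figure D3:**
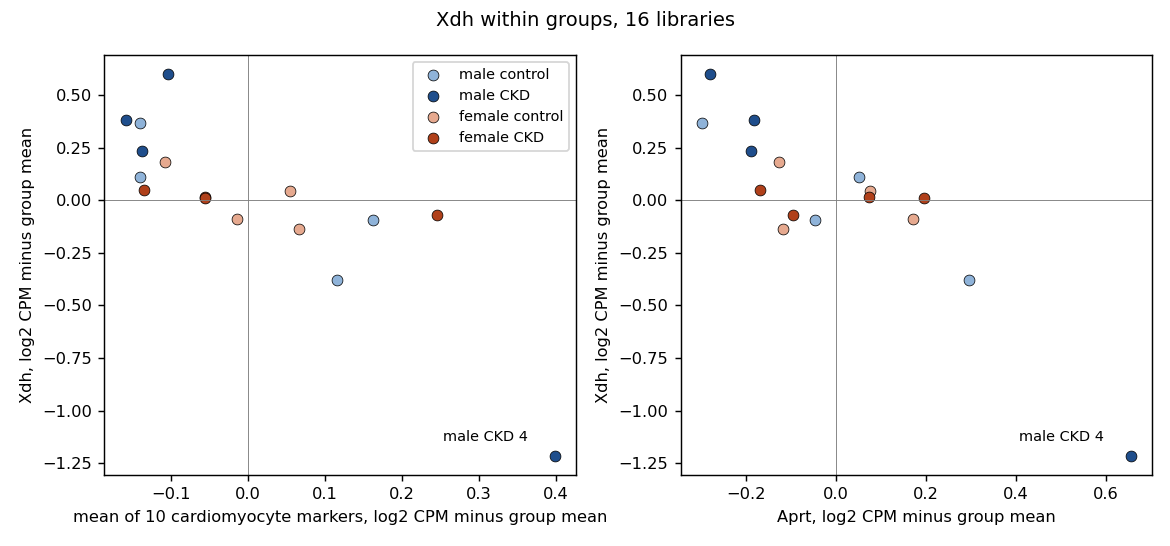
Xdh against the mean of 10 cardiomyocyte markers (left) and against Aprt (right), each as log2 CPM minus the mean of its group, in 16 libraries coloured by group. Pearson's r is -0.834 on the left and -0.886 on the right, and the male CKD 4 library lies far from the other points in both panels.

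Set side by side, 6 of the 10 genes had positive and 4 negative log2 fold changes in CKD, with a median of 0.15 against 0.0017 over all genes tested. The median size of the change, regardless of sign, was 0.227 against 0.158. These medians include Nt5e, which this contrast chose, so they are a description only. CKD and control did not separate fully in both sexes for any of the 10 genes, as they did in 0.427% of all genes tested.

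**Figure D4:**
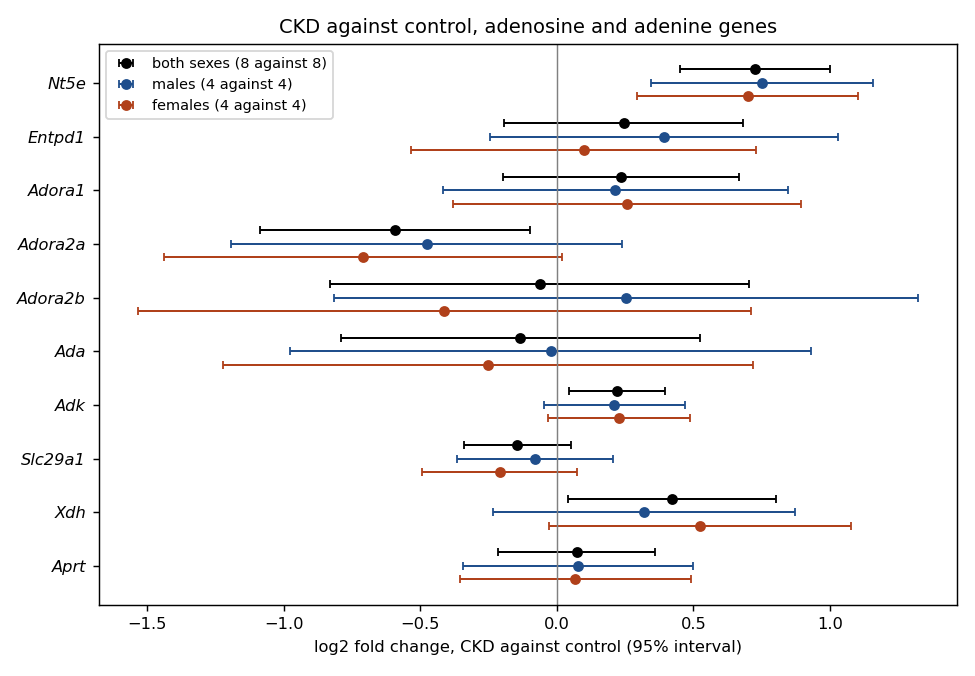
Log2 fold change of CKD against control for each of the 10 genes, with 95% intervals, in both sexes together (black), males (blue) and females (red). The interval over both sexes lies above 0 for Nt5e, Adk and Xdh and below 0 for Adora2a, and the other 6 intervals include 0. Over all genes tested 15.4% of such intervals exclude 0. Nothing is read from that share, because this contrast chose Nt5e and the other genes were gathered around it.

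The difference between the sexes was not used to choose the genes. Of the 10 genes, 0 passed an adjusted p of 0.05 for female against male (edgeR quasi-likelihood test), where 28 of the 16400 genes tested did (0.171%), Xist and the Y-linked Kdm5d, Eif2s3y, Uty and Ddx3y included. The lowest p was that of Nt5e, 1.24-fold higher in females (log2 fold change 0.31, SE 0.13, edgeR adjusted p = 0.160). In 7 of 8 female libraries Nt5e exceeded the male mean of the same diet, a count whose share over all genes was not computed. The value was 0.33 (SE 0.19) in controls and 0.28 (SE 0.19) in CKD mice, and with male CKD 3 left out the value over both diets was 0.24. Adk was higher than the male mean of the same diet in 8 of 8 female libraries, again with no share over all genes computed. Its fitted log2 difference was 0.15 (SE 0.08, edgeR adjusted p = 0.259). Entpd1 had 0.31 (SE 0.21, adjusted p = 0.356) and Xdh 0.22 (SE 0.18, adjusted p = 0.474). The other 6 genes lay between -0.22 for Adora1 and 0.01 for Ada. Female and male libraries differed in their GC trend, as given above. With that trend removed Adk changed from 0.15 to -0.014, Adora2a from -0.16 to 0.44 (SE 0.18) and Aprt from -0.08 to 0.51 (SE 0.21). None of these was past the threshold.

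Whether the CKD difference itself depended on sex was tested as an interaction. Among all 16400 genes 0 (0%) passed the threshold with edgeR, 0 with DESeq2 and 0 with limma-voom, while 276 had an unadjusted p under 0.05 with edgeR. None of the 10 genes was among those 276. The lowest p was that of Adora2b (log2 difference -0.67, SE 0.73, edgeR adjusted p = 0.999999), a gene of few counts. For Nt5e the female minus the male log2 fold change was -0.05 (SE 0.27, 95% interval -0.62 to 0.52), for Xdh 0.20 (SE 0.37), for Entpd1 -0.29 (SE 0.42) and for Adora2a -0.23 (SE 0.48). Intervals of this width do not show that the sexes responded alike.

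Around these genes, 99 purine genes in 11 lists were followed, of which 97 were in the table and 77 were tested. Besides the 10 genes described so far, 67 were tested, and in CKD 31 were higher and 36 lower, with 0 past an adjusted p of 0.05 (edgeR) and 12 at an unadjusted p under 0.05, as 15.4% of all genes tested were. Their median log2 fold change was -0.04, beside 0.0017 over all genes tested. For female against male none of the 77 passed the threshold and 19 had an unadjusted p under 0.05, beside 25.2% of all genes tested, and for the interaction none passed and 1 did, beside 1.68%.

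The other 4 ectonucleotidases tested had negative values in CKD, none past the threshold, with a median log2 fold change of -0.35. Entpd2, a surface enzyme that mainly turns ATP into ADP, was at 10.7 ± 3.25 CPM in controls and 6.71 ± 2.05 in CKD mice (log2 fold change -0.68, SE 0.19, adjusted p = 0.119). Alpl, the tissue-nonspecific alkaline phosphatase, was at 33.5 ± 6.08 and 24.5 ± 4.98 CPM (-0.46, SE 0.14, adjusted p = 0.129). Neither passed the threshold. Among transporters, Slc29a3, a nucleoside carrier of lysosomes, was at 8.41 ± 1.47 CPM in controls and 5.93 ± 1.01 in CKD mice (-0.49, SE 0.13, adjusted p = 0.108), and the nucleobase carrier Slc43a3 had 0.19 (SE 0.17).

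Salvage and synthesis genes were mostly a little higher. Apart from Xdh and Aprt, 1 of 6 and 2 of 13 had an unadjusted p under 0.05 (edgeR), beside 15.4% of all genes tested. In the salvage and breakdown list 5 of 6 genes other than Xdh and Aprt had positive values, among them Hprt, which salvages hypoxanthine and guanine (0.25, SE 0.09, adjusted p = 0.195), and Gda, guanine deaminase (0.19, SE 0.21). In de novo purine synthesis 11 of 13 were positive with a median of 0.14, although the 2 values largest in size were negative: Impdh1, of the guanine nucleotide branch (-0.44, SE 0.28), and Mthfd2, a mitochondrial folate enzyme (-0.37, SE 0.21). Prps1, a phosphoribosyl pyrophosphate synthetase named after its values were seen, had the lowest p of the 67 genes. It was at 37.8 ± 3.71 CPM in controls and 48.4 ± 6.06 in CKD mice (0.35, SE 0.07, adjusted p = 0.0813) and did not pass the threshold. Of the intracellular adenosine enzymes 4 of 6 others were positive. Dck, deoxycytidine kinase, had -0.35 (SE 0.16, adjusted p = 0.305), and Ahcy, which frees adenosine from S-adenosylhomocysteine, 0.17 (SE 0.13). Among intracellular nucleotidases 4 of 6 were positive, with Nt5c2 at 0.33 (SE 0.11, adjusted p = 0.181) and the mitochondrial Nt5m at -0.22 (SE 0.11).

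In the lists around AMP deamination, ATP release and ATP sensing most values were negative. An unadjusted p under 0.05 (edgeR) was met by 1 of 10, 1 of 5 and 0 of 10 genes, beside 15.4% of all genes tested. In the list of AMP deaminases, adenylate kinases and the purine nucleotide cycle 8 of 10 were negative, led by the AMP deaminases Ampd2 (-0.32, SE 0.13, adjusted p = 0.259) and Ampd3 (-0.23, SE 0.13). In the list named ATP release channels, which also holds Vdac1 and Slc17a9, 4 of 5 were negative. Calhm2 was at -0.42 (SE 0.19) and the pannexin gene Panx1 at -0.33 (SE 0.26). In the list named ATP and ADP receptors 8 of 10 were negative, with P2ry13 at -0.48 (SE 0.23). The list is wider than its name, and 1 of the 8 was P2ry14, a receptor for UDP sugars, at -0.38 (SE 0.21). Among urate transporters, Abcg2 had 0.28 (SE 0.09, adjusted p = 0.177) and Abcc4 -0.39 (SE 0.17, adjusted p = 0.284). None of these passed the threshold.

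**Figure D5:**
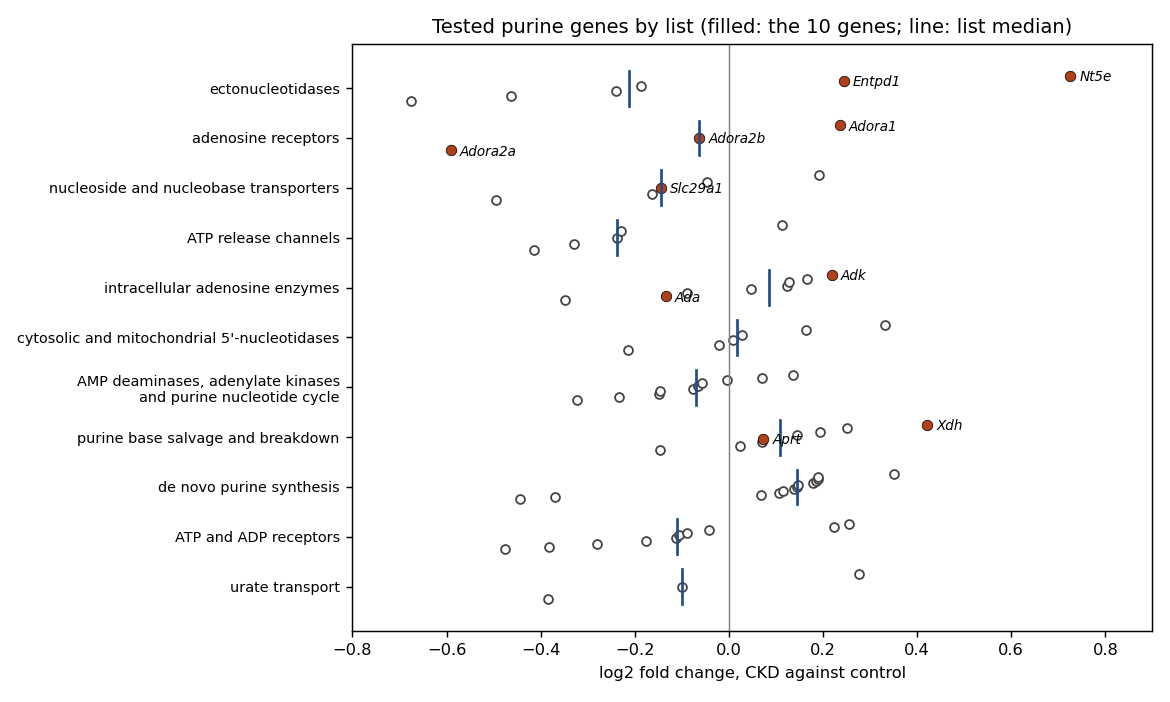
Log2 fold change of CKD against control (horizontal axis) for the 77 tested purine genes in 11 lists; filled points are the 10 genes described, open points the other 67, and lines the list medians. Nt5e lies farthest to the right at 0.73 and Entpd2 farthest to the left at -0.68, both in the ectonucleotidase list.

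The genes whose levels were most like Nt5e among mice of the same group were found among 11396 protein-coding genes, by Pearson's r over 16 libraries after the group means were subtracted. They were Arhgap42, a GTPase-activating protein (r = 0.817, rho = 0.847), Rubcnl, an autophagy regulator (0.807 and 0.747), and Slc9a3, a sodium-proton exchanger (0.805 and 0.744). Pip5k1b, a phosphoinositide kinase (0.774 and 0.762), and Cdkn1a, a cyclin-dependent kinase inhibitor (0.770 and 0.738), came next. With male CKD 4 and female control 2 left out all 5 stayed between 0.784 and 0.877. These values are the highest of many and have no p. In CKD their own log2 fold changes were small, from -0.22 for Rubcnl to 0.25 for Slc9a3.

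For 8 of the other genes the closest were Sav1 for Entpd1 (r = 0.963), Adck2 for Adora2a (0.922), Cnn3 for Adora2b (0.863) and Trp53bp2 for Ada (0.766). Uros, an enzyme of heme synthesis, was closest to Adk (0.959), Copg1, a coat protein of transport vesicles, to Slc29a1 (0.937), Cdc42bpa, a kinase of the actin cytoskeleton, to Xdh (0.953) and Naxe to Aprt (0.945). With male CKD 4 and female control 2 left out, r was 0.760 between Xdh and Cdc42bpa and 0.842 between Aprt and Naxe. The other 6 of these pairs stayed between 0.744 and 0.942.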

How the data were processed

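The 10 genes, the pathway and marker lists and the tests were chosen with earlier results of these data known. For 16 ventricle libraries the authors deposited 1 table of unnormalized counts per gene. Per the labels' protocols, 50 bp paired-end reads were sequenced. STAR 2.6.1d, featureCounts (Subread 1.6.3), DESeq2 1.30.1, FastQC and MultiQC are named in the submitters' processing notes, as is the build mm10. Annotation release, strandedness and the handling of reads with several matches were not given in the sources used here. Of 33399 gene identifiers, 33367 matched GENCODE M21 (GRCm38), 32027 of them with the same version, which gave symbols, positions, exon lengths and GC content. Motif windows came from RefSeq (GRCm38.p6).

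The analysis of counts used edgeR 4.0.16 (R 4.3.3), with filterByExpr on the 4 groups (minimum count 10, total 15), TMM scaling, and quasi-likelihood F tests, two-sided, with Benjamini-Hochberg adjustment over 16400 genes. CKD and sex entered 1 model, and the interaction and effects within a sex came from a model of treatment by sex. The edgeR fit of CKD against control was also run on simulated counts with known changes. These had a common dispersion for all genes and no sex difference, GC trend or outlying library. That run therefore does not cover these features of the real libraries. In the real libraries the biological coefficient of variation was 0.225, and CKD log2 fold changes had a median standard error of 0.149. Log2 CPM values for correlations had a prior count of 2, and permutation p-values used 100000 resamples. Permutations shuffled the residuals over all libraries without keeping the 4 groups apart. They made no allowance for the group means subtracted, so the correlation p-values are likely too small. Correlations among the 10 genes, with the GC trend, and within title code number 6 (the digit that follows C in each title) were chosen after seeing the data, as were the shares of genes with at least 7 CKD libraries above, or 3 below, every control.

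The genes named were the 10, the 2 other genes of each pathway list with the largest absolute change in CKD with at least 0 log2 CPM on average, and the genes most like each of the 10 (5 for Nt5e, 1 for each other), among protein-coding genes with at least 1 log2 CPM and no predicted names; 1 gene that met this rule is not reported here. Alternatives were DESeq2 1.42.0, voom with quality weights in limma 3.58.1, other scalings and filters, the title code as a factor or only its number 6, GC trends removed (lowess, span 0.3), no sex term, and libraries left out.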

Additional observations from a re-analysis of the deposited data

Results flagged for a closer look

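Aprt in the library male CKD 4 was at 23.3 CPM, far above the other male CKD libraries, which were between 12.1 and 12.96 CPM. It was the only one of 40 sets of 4 libraries (10 genes in 4 groups) in which a single library lay that far from the rest by Dixon's criterion (critical value 0.829), which chance meets in about 1 of 20 sets.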

How the results depend on the processing

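The CKD call of Nt5e is the one that chose the genes, so how often it held is a description. Nt5e kept a positive CKD log2 fold change under all 28 alternatives (0.58 to 0.79), and its call held in 11 of them, including DESeq2, limma-voom and 4 of the 16 fits that left out 1 library. The call was lost with upper-quartile scaling, without mitochondrial genes, with only title code number 6, with the GC trend removed and with no sex term. Entpd1, Adora1, Adora2a, Adk, Slc29a1 and Xdh kept the sign of their CKD difference under all alternatives run; Adora2b, Ada and Aprt did not. No paired analysis was possible because the replicate numbers were given in accession order and pair nothing. The causes of the differences that follow were not tested, and a low depth limits Ada and Adora2b.

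The number of genes called for CKD was 14, and 362 with DESeq2, 199 with limma-voom, 53 with no filter, 234 with the title code as a factor, 8 with only its number 6 and 22 without male CKD 4 and female control 2. Leaving out single libraries gave 6 to 43: 43 without female CKD 4, 37 without male control 2, and 6 without each of female CKD 1, 2 and 3, female control 3, male CKD 1 and male control 4. Female against male gave 28 calls, and 1461 with DESeq2, 2717 with limma-voom, 48 with upper-quartile scaling, 616 with no filter, 15 with the title code as a factor, 16 with its number 6 and 9 with the GC trend removed. Leaving out single libraries gave 8 (female CKD 2) to 1461 (female control 3), with 245 without male control 2. None of the 10 genes was called for female against male under any alternative. The 13 called pairs of gene and marker list (by Pearson's r) became 0 without male CKD 4 and female control 2.

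Signs turned only for uncalled values. For female against male these were, with limma-voom, the title code as a factor and its number 6, Ada (-0.18, -0.20 and -0.27) and Aprt (0.071, 0.098 and 0.14); with number 6 also Xdh (-0.025). With the GC trend removed they were Adora2a (0.44), Adk (-0.014) and Aprt (0.51). Without male CKD 4 and female control 2 they were Slc29a1 (-0.010) and Aprt (0.022), and without mitochondrial genes Slc29a1 (-0.00013). Leaving out single libraries gave 0.039 to 0.049 where Adora2b turned (-0.39 to 0.049 over all), -0.14 to 0.18 for Ada, -0.045 to 0.060 for Slc29a1 and -0.12 to 0.073 for Aprt.

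For the interaction, Nt5e turned with limma-voom (0.19), the title code as a factor (0.12), its number 6 (0.27) and without male CKD 4 and female control 2 (0.032). Adora1 turned with the latter 3 settings (-0.24, -0.064 and -0.14), and Xdh with number 6 (-0.0031) and without the pair of libraries (-0.071). Adk turned with no filter (-0.0017) and the GC trend removed (-0.019). Aprt turned with limma-voom (0.095), upper-quartile scaling (0.0019), number 6 (0.0099), without the pair (0.27) and with the GC trend removed (0.067). Leaving out single libraries gave -0.21 to 0.047 for Nt5e, -0.19 to 0.25 for Adora1, -0.62 to 0.13 for Ada, -0.063 to 0.092 for Adk, -0.095 to 0.40 for Xdh and -0.12 to 0.22 for Aprt.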
